A study of Homo sapiens with 18 samples.

Results

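Glutathione, the tripeptide of glutamate, cysteine and glycine, is the main small thiol of red cells and their precursors. Its cysteine can be taken up as cystine or made from methionine by transsulfuration, in which CBS joins homocysteine to serine and CTH cuts the resulting cystathionine to release cysteine. GCLC and GCLM together make gamma-glutamylcysteine, GSS adds glycine, GPX1 and GPX4 spend glutathione to reduce peroxides, GSR regenerates it, and CHAC1 breaks it down inside the cell. These 9 genes, CHAC1, CTH, CBS, GCLC, GCLM, GSS, GSR, GPX1 and GPX4, were taken by name from the 35616 genes of the expression table and followed across all 6 groups.

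RNA had been sequenced from HUDEP-2, an immortalised human erythroid progenitor line made from umbilical cord blood. The tested cells, HBBko, are HUDEP-2 cells in which HBB, the adult beta-globin gene, was disrupted, and the control cells are unedited HUDEP-2 (WT). Each line was sampled undifferentiated, after 48 h of differentiation and after 5 d, with 3 libraries in each of the 6 groups and 18 in all. Neither the number of HBBko clones nor whether the triplicates were independent cultures is given in the labels, so a p-value here measures only the spread between these libraries.

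Values are in scaled TPM, a per-length abundance that had been scaled between libraries before deposit. A log2 fold change is the HBBko mean minus the WT mean of log2(scaled TPM + 1), with its standard error (SE), and a gene was called when its limma p-value, adjusted over all 12005 genes tested, was under 0.05. GSS had no library at 1 scaled TPM or more and was not tested, which left 8 of the 9 genes. The columns of the table carry the names thal and wen in place of the genotypes, and thal was read as HBBko by its name alone. HBB took 0.587% to 0.623%, 2.61% to 2.82% and 5.99% to 6.14% of the signal in HBBko libraries at the 3 stages, against 1.57% to 2.57%, 10.8% to 13.5% and 29.2% to 30.4% in WT libraries. In each stage HBB was thus lower in every HBBko library. All 9 erythroid markers passed the filter on low values, while no lymphoid and no stromal marker did. Of the myeloid markers SPI1 alone passed, with means of 40.2 in undifferentiated HBBko cells and 33.5 in undifferentiated WT cells. Of the megakaryocyte markers ITGA2B alone passed, with means of 1.61 and 4.13 in the same groups. The summed mast cell and basophil markers were between 1.99 and 572 scaled TPM in HBBko libraries and between 2.03 and 444 in WT libraries. They were highest in undifferentiated cells of both lines. Most of that undifferentiated sum was TPSAB1 alone, with means of 523 in HBBko cells and 374 in WT cells. Replicate 3 of undifferentiated WT and replicate 3 of WT at 48 h stood apart from the other libraries of their groups, with more HBB.

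Sequences around an annotated start are shown for CHAC1, CTH and GCLM. CHAC1 and CTH were the members that differed most between the lines in undifferentiated cells and at 48 h. GCLM differed in the other direction at 48 h. Each is the RefSeq window (GRCh38.p14) of 250 bases before to 50 bases after the annotated start, written 5′ to 3′ along the gene's strand, with motif matches in capitals. They lie at chr15:40953221-40953520 (plus strand), chr1:70411018-70411317 (plus strand) and chr1:93909381-93909680 (minus strand). The RefSeq start of CHAC1 lies inside the longer GENCODE v29 span of the gene given further on, so its window is within that span.
CHAC1: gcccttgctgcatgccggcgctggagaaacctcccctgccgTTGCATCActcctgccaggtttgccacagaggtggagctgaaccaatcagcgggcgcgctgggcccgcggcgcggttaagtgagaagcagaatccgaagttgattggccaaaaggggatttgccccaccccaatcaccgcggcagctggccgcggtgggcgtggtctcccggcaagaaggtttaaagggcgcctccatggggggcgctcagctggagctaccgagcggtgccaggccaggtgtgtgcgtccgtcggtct
CTH: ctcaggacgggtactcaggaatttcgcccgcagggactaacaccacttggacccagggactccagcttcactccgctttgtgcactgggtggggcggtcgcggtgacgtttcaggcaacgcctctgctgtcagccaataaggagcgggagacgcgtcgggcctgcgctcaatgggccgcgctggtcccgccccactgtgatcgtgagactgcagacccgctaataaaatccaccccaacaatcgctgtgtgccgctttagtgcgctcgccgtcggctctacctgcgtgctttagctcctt
GCLM: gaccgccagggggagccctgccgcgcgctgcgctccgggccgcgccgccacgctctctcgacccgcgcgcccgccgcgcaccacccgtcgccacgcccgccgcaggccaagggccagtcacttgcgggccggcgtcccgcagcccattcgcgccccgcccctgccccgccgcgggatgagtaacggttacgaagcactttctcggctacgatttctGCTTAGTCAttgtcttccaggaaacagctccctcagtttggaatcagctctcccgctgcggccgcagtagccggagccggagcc

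Both strands were searched for 3 motifs: TGATGNAA, the composite element bound by ATF4 with C/EBP partners, TGACGTCA, the cAMP response element, and TGACNNNGC, the antioxidant response element bound by NRF2 with small MAF proteins. The CHAC1 window held 1 match to TGATGNAA, on the strand opposite to the gene (TGATGCAA), and the GCLM window held 1 match to TGACNNNGC, also on the opposite strand (TGACTAAGC). The CTH window held none of the 3. Of 35116 RefSeq promoter windows of this length, 3.62% held TGATGNAA, 1.85% held TGACGTCA and 13.3% held TGACNNNGC. Of the other genes with a window (CBS, GCLC, GPX1 and GPX4), a CBS window alone held a match, to TGACNNNGC. GSS and GSR had no entry. These are matches of letters and say nothing of binding in these cells.

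CHAC1, on chromosome 15 (40952962 to 40956519, plus strand, GRCh38, GENCODE v29), encodes a gamma-glutamylcyclotransferase that cleaves glutathione. It was the member that differed most between the lines, and its fold change in undifferentiated cells was the lowest of all 12005 genes tested. Undifferentiated HBBko libraries held 2.69, 3.89 and 2.03 scaled TPM of CHAC1, against 35.5, 32.3 and 78.7 in WT libraries. At 48 h they held 3.76, 3.70 and 4.02 in HBBko cells and 21.7, 18.5 and 28.2 in WT cells. At 5 d the levels were 160, 125 and 112 scaled TPM in HBBko cells and 315, 283 and 310 in WT cells.

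At each stage every HBBko library was below every WT library for CHAC1, and replicate 3 of undifferentiated WT was the highest of its group. The ratio of the means (WT over HBBko) was 17.0 in undifferentiated cells, 5.96 at 48 h and 2.28 at 5 d. The log2 fold change was -3.60 ± 0.25 in undifferentiated cells (SE; limma adjusted p = 3.18e-08), -2.28 ± 0.25 at 48 h (adjusted p = 8.95e-06) and -1.20 ± 0.25 at 5 d (adjusted p = 7.07e-04). Counted from the lowest of all tested genes it stood at rank 1, 4 and 165 at the 3 stages. Without replicate 3 of undifferentiated WT, the undifferentiated value was -3.20.

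CTH, on chromosome 1 (70411218 to 70439851, plus strand), encodes cystathionine gamma-lyase and, like CHAC1, was lower in HBBko cells at all 3 stages. Undifferentiated HBBko libraries held 4.48, 4.24 and 4.35 scaled TPM of CTH, against 19.0, 22.7 and 34.0 in WT libraries. At 48 h the values were 3.67, 3.95 and 3.54 in HBBko cells and 7.49, 7.47 and 9.11 in WT cells. At 5 d they were 23.6, 23.5 and 21.2 in HBBko cells and 37.6, 33.7 and 35.3 in WT cells.

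The HBBko and WT ranges of CTH did not overlap at any stage. Its log2 fold change was -2.25 ± 0.14 in undifferentiated cells (SE; limma adjusted p = 7.09e-09), -0.93 ± 0.14 at 48 h (adjusted p = 1.93e-04) and -0.62 ± 0.14 at 5 d (adjusted p = 0.0011). It stood at rank 10, 120 and 820 from the lowest of all tested genes. CTH at 5 d in HBBko cells overlapped with CTH in undifferentiated WT cells.

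CBS, on chromosome 21 (43053191 to 43076943, minus strand), encodes cystathionine beta-synthase, the enzyme before CTH in the pathway, and on the per-length scale of TPM it was above CTH in every library. In undifferentiated cells it was 270, 258 and 278.8 scaled TPM in HBBko libraries and 328, 289 and 373 in WT libraries. At 48 h it was 126, 117 and 122 in HBBko cells and 155, 147 and 161 in WT cells, and at 5 d it was 306, 284 and 273 in HBBko cells and 306, 291 and 301 in WT cells. CBS was thus lower in HBBko cells at the first 2 stages, with log2 fold changes of -0.29 ± 0.07 (limma adjusted p = 0.004) and -0.34 ± 0.07 (adjusted p = 0.0031), while at 5 d the ranges overlapped (-0.06 ± 0.07, adjusted p = 0.53). In a fit of the undifferentiated libraries alone, the first of these calls was lost (adjusted p = 0.062).

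Reads of CBS are shared with CBSL, a near-identical copy elsewhere on chromosome 21, whose own level was 3.69 to 11.4 scaled TPM in HBBko libraries and 5.04 to 13.2 in WT libraries, so how reads were split between them is uncertain. Summing both rows changed no call. Where all libraries were rescaled to the same sum, CBS at 5 d became higher in HBBko cells (0.28, adjusted p = 6.32e-04), but that scaling also moved the median of all genes at 5 d to 0.27, compared with 0.02 as deposited.

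**Figure D1:**
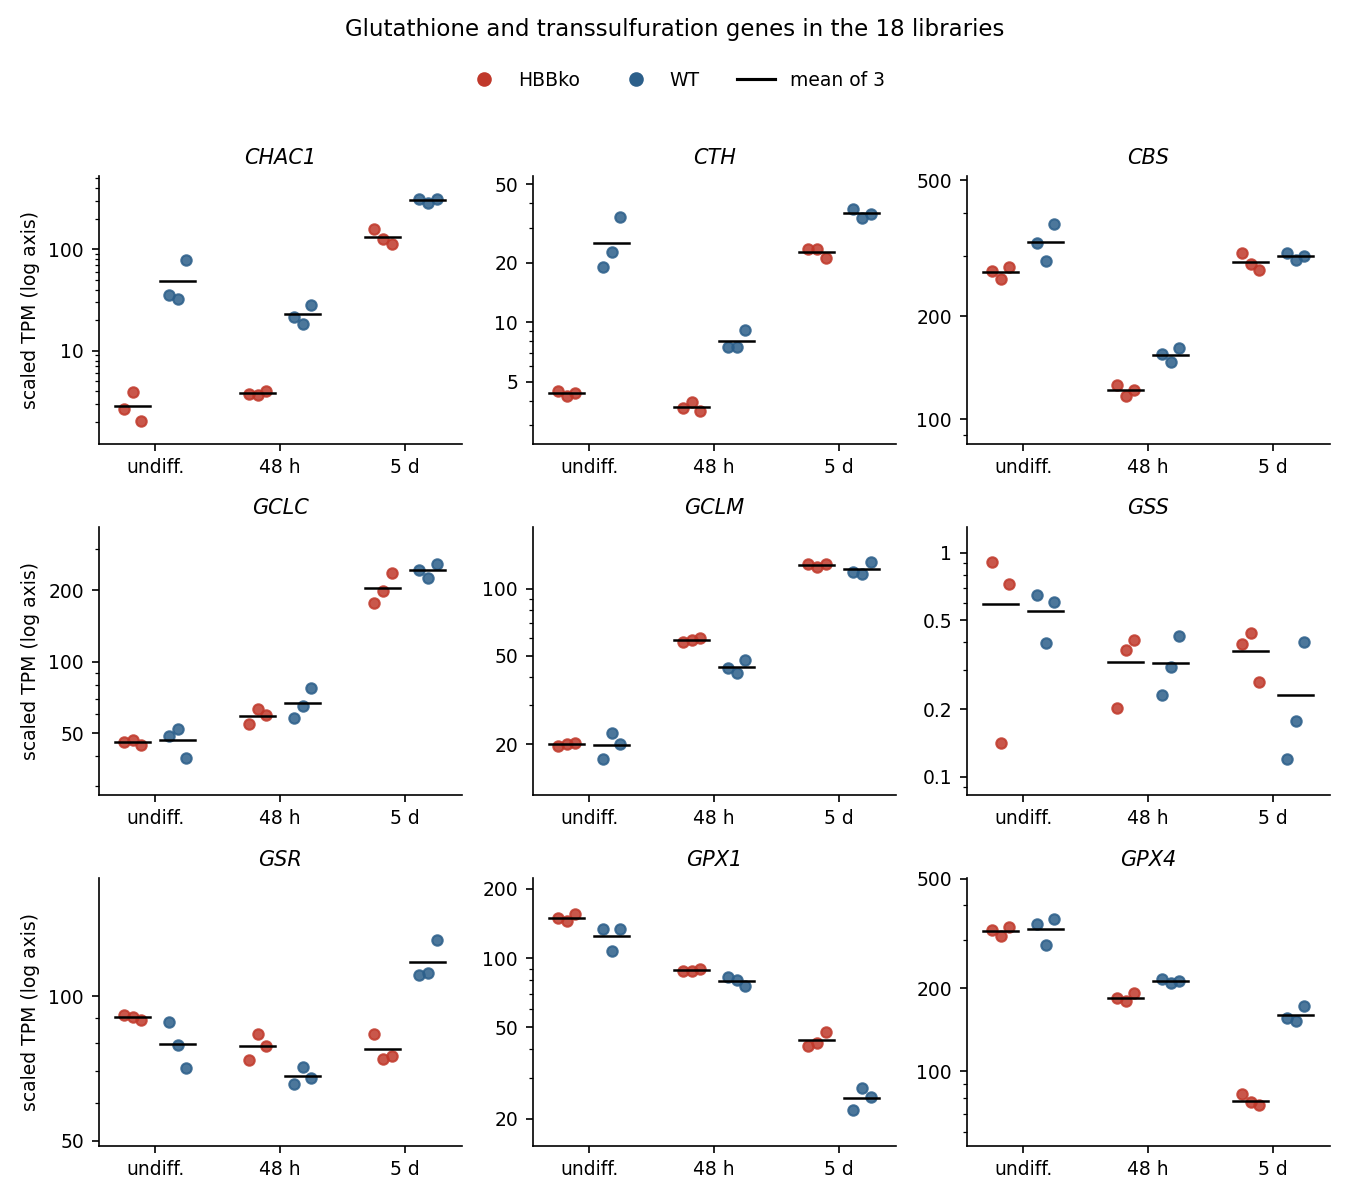
Scaled TPM (log axis) of the 9 genes in each of the 18 libraries, HBBko in red and WT in blue at each stage, with a bar at the mean of 3 libraries. CHAC1 and CTH are lower in HBBko cells and called at every stage. The ranges of GSR and GPX1 do not overlap at any stage either. GSR was called at 5 d alone, where its direction was reversed, and GPX1 was not called at 48 h. The share of all tested genes without overlap is not given here. GPX4, GSR and GPX1 differ most between the lines at 5 d, and all values of GSS lie under 1.

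Of the pair that makes gamma-glutamylcysteine, the catalytic subunit GCLC (chromosome 6, 53497341 to 53616970, minus strand) was called at none of the 3 stages. GCLC was 45.9, 47.0 and 44.7 scaled TPM in undifferentiated HBBko libraries and 48.6, 52.1 and 39.3 in WT libraries. At 48 h it was 54.5, 63.1 and 59.7 in HBBko cells and 58.2, 64.8 and 77.8 in WT cells, and at 5 d it was 177, 199 and 237 in HBBko cells and 244, 226 and 259 in WT cells. The ranges of the lines overlapped at every stage. The 5 d difference was -0.26 ± 0.12 (limma adjusted p = 0.072), and -0.37 (adjusted p = 0.018) without HBBko replicate 3. It was also called without both WT replicate 3 libraries (adjusted p = 0.021), and when libraries were weighted or scaled by the median of ratios (adjusted p = 0.046 in each).

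The modifier subunit GCLM (chromosome 1, 93885205 to 93909456, minus strand) was higher in HBBko cells at 48 h. It was 57.6, 58.7 and 59.8 scaled TPM in HBBko libraries at 48 h, against 43.9, 41.6 and 47.9 in WT libraries, with no overlap (log2 fold change 0.40 ± 0.08, limma adjusted p = 0.0016). In undifferentiated cells it was 19.7, 20.1 and 20.2 in HBBko libraries and 17.1, 22.5 and 20.1 in WT libraries (0.02 ± 0.08, adjusted p = 0.88). At 5 d it was 129, 126 and 129 in HBBko libraries and 118, 117 and 131 in WT libraries (0.07 ± 0.08, adjusted p = 0.46). With equal library sums the 5 d difference was called (0.40, adjusted p = 1.34e-04), beside a median of 0.27 over all genes. The ranges overlapped at both of these stages.

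GSS, glutathione synthetase (chromosome 20, 34928433 to 34956027, minus strand), has 2 incompatible records in the deposit. In the scaled TPM table it lay between 0.141 and 0.907 in HBBko libraries and between 0.120 and 0.651 in WT libraries. The authors' deposited tables, which list a mean log2 level per gene and stage, put GSS at 11.97 in undifferentiated cells, 12.09 at 48 h and 10.17 at 5 d.

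The gap between the authors' deposited mean log2 level and log2(scaled TPM + 1) was wider for GSS than for 99.98%, 99.97% and 99.9% of the genes found in both sources at the 3 stages. Only 4, 9 and 6 genes averaged under 1 scaled TPM while the authors' deposited mean log2 level was 10 or more. The scaled TPM of GSS was therefore not used as its level. In the authors' deposited table, the log2 fold change of GSS (HBBko over WT) was -0.19 in undifferentiated cells (q = 0.092), 0.01 at 48 h (q = 0.91) and 0.30 at 5 d (q = 1.4e-05). The deposited columns do not name the direction of that fold change. It was read from the values, since its sign matched that of HBBko minus WT for 193 of 193, 115 of 115 and 401 of 402 genes that differed over 2-fold.

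**Figure D2:**
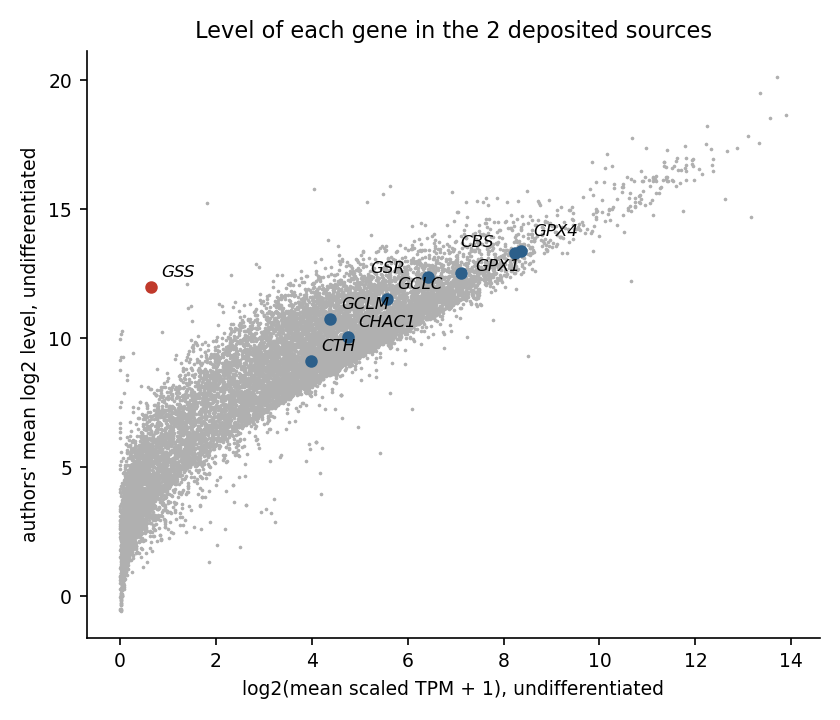
Each point is a gene in undifferentiated cells, with log2(mean scaled TPM + 1) over the 6 libraries on the x axis and the authors' deposited mean log2 level on the y axis. GSS (red) lies at 11.97 on the y axis with a mean under 1 scaled TPM, away from the band that holds the other 8 named genes (blue).

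GSR, glutathione reductase (chromosome 8, 30678061 to 30727999, minus strand), was called at 5 d, where it was lower in HBBko cells. At 5 d it was 83.5, 74.0 and 75.3 scaled TPM in HBBko libraries, against 111, 112 and 131 in WT libraries (log2 fold change -0.60 ± 0.08, limma adjusted p = 8.27e-06). Before that its values ran the other way without passing the test. They were 91.3, 90.5 and 89.5 in undifferentiated HBBko libraries and 88.4, 79.4 and 71.0 in WT libraries (0.19 ± 0.08, adjusted p = 0.062), and at 48 h they were 73.6, 83.7 and 78.7 in HBBko libraries and 65.7, 71.3 and 67.5 in WT libraries (0.20 ± 0.08, adjusted p = 0.081). The ranges did not overlap at any stage. Without WT replicate 1 the undifferentiated difference was called (0.27, adjusted p = 0.011), and the 48 h difference was called with equal library sums (0.34, adjusted p = 0.0086), with libraries weighted (adjusted p = 0.005) and in a fit of the 48 h libraries alone (adjusted p = 0.021).

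GPX1 (chromosome 3, 49357171 to 49358600, minus strand, typed as a polymorphic pseudogene in GENCODE v29) encodes the abundant cytosolic peroxidase of red cells. It was higher in HBBko cells at 5 d, with 41.6, 42.9 and 47.7 scaled TPM in HBBko libraries and 21.9, 27.2 and 24.8 in WT libraries (log2 fold change 0.82 ± 0.08, limma adjusted p = 5.08e-07). In undifferentiated cells it was 149, 145 and 155 in HBBko libraries and 133, 107 and 134 in WT libraries (0.27 ± 0.08, adjusted p = 0.015). That call was lost when HBBko replicate 3 (0.24, adjusted p = 0.055) or WT replicate 2 (0.16, adjusted p = 0.080) was left out, and in a fit of the undifferentiated libraries alone (adjusted p = 0.072). At 48 h it was 87.7, 87.4 and 89.6 in HBBko libraries and 82.7, 80.5 and 75.7 in WT libraries (0.15 ± 0.08, adjusted p = 0.24), a difference called with equal library sums (0.29, adjusted p = 0.011), with library weights (adjusted p = 0.034) and in a fit of the 48 h libraries alone (adjusted p = 0.019). The HBBko values were above the WT values at all 3 stages, with no overlap.

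GPX4 (chromosome 19, 1103926 to 1106791, plus strand), the peroxidase that reduces lipid peroxides in membranes, differed between the lines at 5 d in the direction opposite to GPX1. It was 82.2, 76.9 and 75.2 scaled TPM in HBBko libraries at 5 d, against 156, 152 and 173 in WT libraries (log2 fold change -1.03 ± 0.07, limma adjusted p = 4.89e-09). In undifferentiated cells the ranges overlapped, at 325, 309 and 335 in HBBko libraries and 343, 286 and 358 in WT libraries (-0.02 ± 0.07, adjusted p = 0.82). At 48 h it was 184, 179 and 192 in HBBko libraries and 216, 209 and 213 in WT libraries, without overlap but short of the threshold (-0.20 ± 0.07, adjusted p = 0.053), which it passed in 6 alternatives (adjusted p between 4.02e-04 and 0.047).

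The 5 d differences of GSR, GPX1 and GPX4 stood beside other differences between the lines at that stage. HBB took 5.99% to 6.14% of the signal in HBBko libraries and 29.2% to 30.4% in WT libraries, and mitochondrially encoded transcripts took 2.287% to 2.975% in HBBko libraries and 1.335% to 1.459% in WT libraries. The 9 erythroid markers, globins included, summed to 245967 to 255538 scaled TPM in HBBko libraries and to 596153 to 632628 in WT libraries. Their part in the glutathione gene differences was not tested. In bulk RNA, fewer cells of a type and less RNA per cell cannot be told apart.

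**Figure D3:**
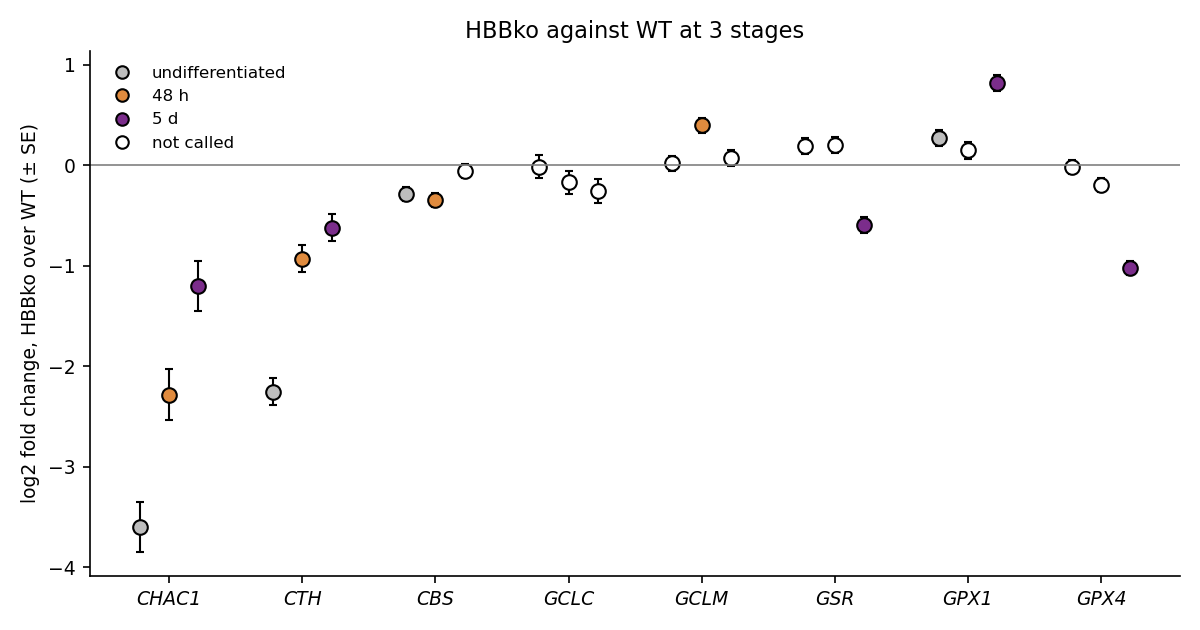
Log2 fold change of HBBko over WT for the 8 tested genes at the 3 stages, with bars of 1 SE of the fit and open circles for differences that were not called. CHAC1 and CTH start far below 0 and come nearer to it with each stage, while GSR and GPX4 (below 0) and GPX1 (above 0) are farthest from 0 at 5 d.

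Counted together, 1 of the 8 tested genes was higher and 3 were lower in undifferentiated HBBko cells, where 20.9% of all tested genes were called higher and 22.3% lower. At 48 h 1 was higher and 3 were lower, against 9.52% and 9.21% of all tested genes. At 5 d 1 was higher and 4 were lower, against 26.5% and 24.8%. The median log2 fold change of the 8 genes was -0.02, -0.18 and -0.43 at the 3 stages, and that of all tested genes was -0.01, 0.02 and 0.02. CHAC1 and CTH were the pair called lower at all 3 stages.

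The direction of the authors' deposited tables was read from the values used here, so shared signs are not independent evidence. For the calls made here between HBBko and WT cells within a stage, those tables gave the same signs. Their log2 fold changes were -3.68, -2.85 and -1.29 for CHAC1, -2.50, -1.115 and -0.65 for CTH, and -1.04 for GPX4 and 0.84 for GPX1 at 5 d. Of the calls made here in undifferentiated cells, CBS (q = 0.063) and GPX1 (q = 0.10) had a q over 0.05 in the authors' deposited table. At 48 h the authors' deposited table also had GSR (0.19, q = 0.012), GPX1 (0.14, q = 0.0023) and GPX4 (-0.22, q = 7.7e-09) under that threshold.

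Most of these genes, like most of all tested genes, changed between stages. From undifferentiated cells to 48 h, 2 of the 8 genes rose and 4 fell in HBBko cells, against 25.1% and 40.1% of all tested genes, while 2 rose and 6 fell in WT cells, against 23.5% and 41.4%. CBS fell by 1.14 on the log2 scale in HBBko cells and fell by 1.08 in WT cells (SE 0.07 each; limma adjusted p = 3.12e-10 and 6.24e-10). GCLM rose by 1.51 in HBBko cells and by 1.13 in WT cells (adjusted p = 1.56e-11 and 7.09e-10), and GCLC rose by 0.36 in HBBko cells and by 0.51 in WT cells (adjusted p = 0.012 and 8.83e-04). GPX1 fell by 0.76 in HBBko cells and fell by 0.64 in WT cells, and GPX4 fell by 0.80 in HBBko cells and fell by 0.62 in WT cells.

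Both CHAC1 (log2 change -0.97 ± 0.25, limma adjusted p = 0.0026) and CTH (-1.504 ± 0.14, adjusted p = 3.89e-08) fell at 48 h in WT cells. Without replicate 3 of undifferentiated WT the change of CHAC1 was -0.57. In HBBko cells neither gene passed the test at this step (CHAC1 0.35 ± 0.25, adjusted p = 0.24, and CTH -0.18 ± 0.14, adjusted p = 0.25). CHAC1 was called higher with quantile normalization (0.61, adjusted p = 0.042), with library weights (adjusted p = 0.023) and without both WT replicate 3 libraries (adjusted p = 0.045). CTH was called lower with equal library sums (-0.28), with library weights (adjusted p = 0.027), in a fit of the compared groups only (adjusted p = 0.026) and without both WT replicate 3 libraries (adjusted p = 0.028). GSR fell by 0.20 in HBBko cells and fell by 0.22 in WT cells (adjusted p = 0.032 and 0.023), and both calls were lost under median-of-ratios scaling (-0.09 in HBBko cells and -0.08 in WT cells). When 1 library was left out, the HBBko call remained only without HBBko 48 h replicate 2, and the WT call was lost without WT undifferentiated replicate 1, WT 48 h replicate 1 or WT 48 h replicate 3 (adjusted p up to 0.14 in both lines).

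From 48 h to 5 d, 5 of the 8 genes rose and 2 fell in HBBko cells, against 30.2% and 49.5% of all tested genes, and 6 rose and 2 fell in WT cells, against 30.8% and 49.5%. CHAC1 rose most, by 4.77 ± 0.25 on the log2 scale in HBBko cells and 3.69 ± 0.25 in WT cells (limma adjusted p = 9.56e-12 and 2.82e-10). The ratio of its means at 5 d over 48 h was 34.6 in HBBko cells and 13.3 in WT cells. In HBBko cells CTH rose by 2.33, CBS by 1.24, GCLC by 1.77 and GCLM by 1.11, and in WT cells CTH rose by 2.02, CBS by 0.95, GCLC by 1.85 and GCLM by 1.44. The median of all tested genes moved by -0.20 in both lines at this step.

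The peroxidases fell from 48 h to 5 d in both lines, with log2 changes of -0.99 in HBBko cells and -1.66 in WT cells for GPX1, and of -1.23 in HBBko cells and -0.41 in WT cells for GPX4 (limma adjusted p = 3.66e-05 for the last). GSR rose in WT cells (0.78 ± 0.08, adjusted p = 5.64e-08) and was not called in HBBko cells (-0.02 ± 0.08, adjusted p = 0.82). These 2 steps depended on the scaling. With equal library sums the rise of GSR in WT cells was 0.14 (adjusted p = 0.17), and GSR fell in HBBko cells (-0.47, adjusted p = 1.23e-04), where the median of all genes was -0.57 in HBBko cells and -0.70 in WT cells. With median-of-ratios scaling GSR rose in HBBko cells (0.24, adjusted p = 0.011) and the fall of GPX4 in WT cells was -0.14 (adjusted p = 0.10).

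Ordered by mean level from low to high, the 6 groups gave each gene its own sequence. For CHAC1 both early HBBko groups were lowest and overlapped (2.87 and 3.82 scaled TPM), and WT at 48 h (22.8), undifferentiated WT (48.8), HBBko at 5 d (132) and WT at 5 d (303) followed without overlap. For GPX1 all 6 groups were separate, with WT at 5 d lowest (24.6) and undifferentiated HBBko highest (149.98). For GPX4 only the undifferentiated groups overlapped, and HBBko at 5 d was lowest (78.1). For GCLC and GCLM the order followed the stage, with the lines overlapping except for GCLM at 48 h. For GSR WT at 5 d stood above the rest (118).

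Whether the difference between the lines changed between stages was tested as an interaction in the same fit. Between undifferentiated cells and 48 h, 3 of the 8 genes had a difference that moved upward and 0 downward (0 also at an unadjusted p under 0.05), against 7.67% and 5.51% of all tested genes. The difference in CTH moved by 1.32 ± 0.19 (limma adjusted p = 7.42e-04), in CHAC1 by 1.31 ± 0.35 (adjusted p = 0.023) and in GCLM by 0.38 ± 0.11 (adjusted p = 0.028). The CHAC1 and GCLM calls were lost with no filter on low values (adjusted p = 0.076 for CHAC1 and 0.065 for GCLM), in a fit of the compared groups only (0.052 for CHAC1 and 0.056 for GCLM), and in 5 of 12 fits without 1 library for CHAC1 and 6 of 12 for GCLM. Between 48 h and 5 d, 3 moved upward and 3 downward, against 11.5% and 13.1%. GPX4 moved by -0.83 ± 0.10 (adjusted p = 1.73e-05), GSR by -0.80 ± 0.11 (adjusted p = 7.16e-05) and GPX1 by 0.67 ± 0.12 (adjusted p = 5.29e-04).

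Over the whole span, from undifferentiated cells to 5 d, 3 moved upward and 2 downward, against 23.5% and 21.5% of all tested genes. The difference in CHAC1 moved by 2.40 ± 0.35 (limma adjusted p = 5.25e-05) and in CTH by 1.63 ± 0.19 (adjusted p = 6.39e-06), both toward 0. GPX4 moved by -1.005 ± 0.10 (adjusted p = 1.06e-06), GSR by -0.78 ± 0.11 (adjusted p = 3.50e-05) and GPX1 by 0.55 ± 0.12 (adjusted p = 0.0013), all away from 0 or, for GSR, across it. CBS was not called (0.23 ± 0.10, adjusted p = 0.075). It was called with the replicate numbers as a block (adjusted p = 0.039), without WT undifferentiated replicate 2 (0.32, adjusted p = 0.0055), with quantile normalization (0.40, adjusted p = 0.0013), with globin genes removed (adjusted p = 0.044) and with equal library sums (0.52, adjusted p = 7.36e-05).

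The genes whose 6 group means ran most like those of CHAC1 were ATF3, SESN2, TRIB3, DDIT4 and SLC7A11, at root mean square differences of 0.588, 0.665, 0.782, 0.793 and 0.837 on the log2 scale, where CHAC1 itself spread by 2.31 about its mean. ATF3 and TRIB3 are induced in the integrated stress response, SESN2 and DDIT4 restrain mTORC1, and SLC7A11 imports cystine. SESN2, for example, averaged 3.94, 2.82 and 39.1 scaled TPM in HBBko cells at the 3 stages and 25.0, 10.4 and 137 in WT cells. For CTH the closest were PSAT1 (serine synthesis), ADM2 (a peptide hormone), NPIPA7, HERPUD1 (ER protein degradation) and CARS (cysteinyl-tRNA synthetase), at 0.262, 0.277, 0.364, 0.368 and 0.392 beside a spread of 1.15. NPIPA7 belongs to a family of near-identical copies and its level is uncertain.

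**Figure D4:**
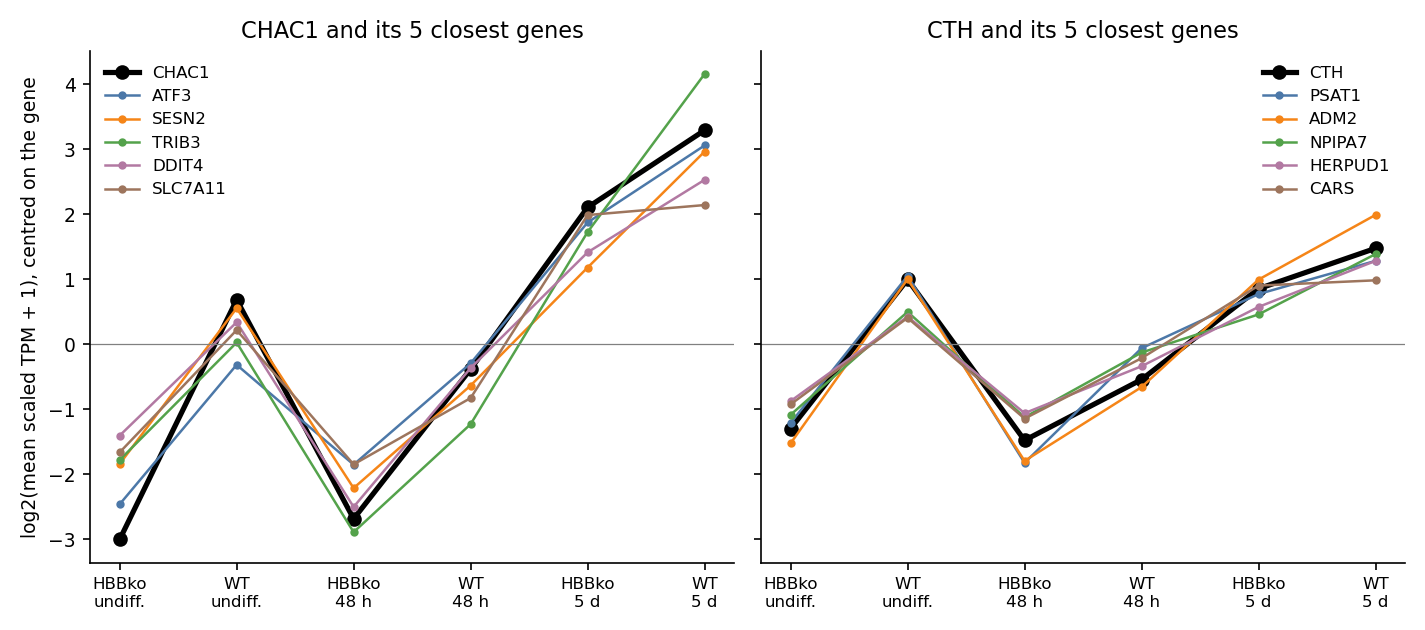
Log2(mean scaled TPM + 1) in the 6 groups, centred on each gene's own mean, for CHAC1 (left, black) and CTH (right, black) with the 5 genes of most similar pattern for each. In both panels the HBBko mean lies below the WT mean at every stage, and WT at 5 d is the highest group.

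Among the members themselves, the closest gene to CHAC1 was CTH (1.26 on the log2 scale, with 0.375% of all tested genes closer), and GCLC and GCLM were closest to each other (0.410). GPX1 and GPX4 were also each other's closest member at 0.596, but 28.8% of all tested genes were closer to GPX1 than GPX4 was, and 39.1% were closer to GPX4 than GPX1 was. These are descriptions over 6 group means, which share the same libraries.

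The shares of all tested genes called higher and lower, given above for each stage, are the background for the counts of each gene list that follows. Of 14 tested genes for cystine, glutamate and glycine supply, 1 was higher and 11 lower in undifferentiated cells, 0 and 10 at 48 h, and 1 and 9 at 5 d, with median log2 fold changes of -0.98, -0.52 and -0.47. At an unadjusted p under 0.05, 1 was higher at 48 h. PSAT1 averaged 44.3 ± 0.754 scaled TPM in HBBko cells before differentiation, against 216 ± 48.2 in WT cells (SD, n = 3 each; log2 fold change -2.24, limma adjusted p = 4.05e-10). SLC7A11, the cystine carrier, averaged 1.27 ± 0.25 in HBBko cells and 7.36 ± 0.90 in WT cells (-1.88, adjusted p = 7.09e-09). PHGDH, the first enzyme of serine synthesis, averaged 5.53 ± 0.94 in HBBko cells at 5 d and 19.6 ± 2.0 in WT cells (-1.66, adjusted p = 8.20e-04).

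ATF4 and its partners with direct targets, CHAC1 and the other members left out, showed 0 higher and 15 lower of 16 tested genes in undifferentiated HBBko cells, 0 and 12 at 48 h and 0 and 13 at 5 d, with medians of -1.27, -0.86 and -1.02. At unadjusted p under 0.05 no gene of this list was higher either. SESN2, a leucine sensor, averaged 3.94 ± 0.23 scaled TPM in HBBko cells before differentiation, against 25.0 ± 9.3 in WT cells (-2.34, limma adjusted p = 8.70e-08), and TRIB3, a pseudokinase, averaged 69.1 ± 10.6 in HBBko cells at 5 d and 377 ± 20.9 in WT cells (-2.44, adjusted p = 2.94e-07). ATF4 itself, named after its values were seen, was 303, 272 and 302 in undifferentiated HBBko libraries and 514, 516 and 704 in WT libraries. That difference was called (log2 fold change -0.97, limma adjusted p = 9.73e-07). At 48 h ATF4 was 268, 266 and 268 in HBBko libraries and 377, 383 and 422 in WT libraries (-0.56, adjusted p = 6.09e-04). At 5 d it was 792, 688 and 712 in HBBko libraries and 742, 701 and 753 in WT libraries, overlapping (adjusted p = 0.98). Whether ATF4 has a part in the differences of CHAC1 and CTH was not tested.

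NRF2, which induces GCLC and GCLM, and its regulators with other targets were split by stage. Of 15 tested genes, 8 were higher and 2 lower in undifferentiated HBBko cells, 3 and 1 at 48 h, and 1 and 10 at 5 d, with medians of 0.23, -0.08 and -0.64. The difference between the lines moved downward from undifferentiated cells to 5 d for 11 of the 15 and upward for 0. Of all tested genes, 21.5% moved downward and 23.5% upward over that span. At an unadjusted p under 0.05, 12 of the 15 moved downward and 0 upward. HMOX1, heme oxygenase, averaged 14.5 ± 1.1 scaled TPM in HBBko cells at 48 h and 5.64 ± 0.45 in WT cells (log2 fold change 1.22, limma adjusted p = 4.05e-05), but 13.1 ± 2.4 in HBBko cells at 5 d and 98.1 ± 17.2 in WT cells (-2.81, adjusted p = 4.42e-10). NQO1, a quinone reductase, averaged 7.28 ± 0.25 in HBBko cells before differentiation, against 5.19 ± 0.28 in WT cells (0.42, adjusted p = 2.16e-04).

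GSR needs NADPH, and PGD and IDH1 are among the enzymes that make it. Of 17 tested genes for NADPH supply and thioredoxin reduction, 2 were higher and 6 lower in undifferentiated HBBko cells, 2 and 1 at 48 h, and 1 and 7 at 5 d. PGD averaged 82.5 ± 6.6 scaled TPM in HBBko cells at 5 d and 170 ± 5.42 in WT cells (log2 fold change -1.04, limma adjusted p = 8.87e-09), beside the lower GSR there. TXNRD1, cytosolic thioredoxin reductase, averaged 46.0 ± 1.5 in HBBko cells and 74.6 ± 6.3 in WT cells (-0.68, adjusted p = 5.66e-07). ME1, malic enzyme, was higher at 48 h, with 3.31 ± 0.12 in HBBko cells and 1.22 ± 0.05 in WT cells (0.96, adjusted p = 1.36e-07).

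GPX1 and GPX4 are selenoproteins, and of 17 other selenoprotein and selenocysteine synthesis genes tested, 3 were higher and 6 lower in undifferentiated HBBko cells, 3 and 0 at 48 h, and 5 and 6 at 5 d. SEPHS2, which makes the selenium donor, averaged 10.7 ± 0.7 scaled TPM in HBBko cells at 5 d and 20.6 ± 0.1 in WT cells (log2 fold change -0.89, limma adjusted p = 9.00e-09). SELENOW was higher in undifferentiated HBBko cells, with 87.7 ± 2.6 in HBBko cells and 65.1 ± 4.6 in WT cells (0.43, adjusted p = 4.03e-05). It was also called higher at 48 h (0.29, adjusted p = 0.0035) and at 5 d (0.32, adjusted p = 3.33e-04).

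Of 11 tested genes for other steps of glutathione breakdown and the gamma-glutamyl cycle, 2 were higher and 3 lower in undifferentiated HBBko cells, 4 and 1 at 48 h, and 3 and 3 at 5 d. GGCT, a second gamma-glutamylcyclotransferase, averaged 18.9 ± 1.3 scaled TPM in HBBko cells at 5 d and 10.8 ± 0.6 in WT cells (log2 fold change 0.75, limma adjusted p = 1.48e-07). OPLAH, which returns 5-oxoproline to glutamate, averaged 3.00 ± 0.36 in HBBko cells before differentiation, against 6.06 ± 1.94 in WT cells (-0.79, adjusted p = 2.83e-04).

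Of 20 other glutathione peroxidases, transferases and glutaredoxins, 3 were higher and 6 lower in undifferentiated HBBko cells, 3 and 3 at 48 h, and 6 and 5 at 5 d, where the shares over all tested genes were 26.5% and 24.8%. MGST3 averaged 29.2 ± 0.92 scaled TPM in HBBko cells before differentiation, against 57.8 ± 17.9 in WT cells (log2 fold change -0.92, limma adjusted p = 4.40e-05). GLRX5, a mitochondrial glutaredoxin needed for iron-sulfur clusters, averaged 339 ± 8.67 in HBBko cells at 5 d and 532 ± 17.2 in WT cells (-0.65, adjusted p = 5.83e-07). Of 15 genes of the methionine cycle and sulfur oxidation, 2 were higher and 4 lower in undifferentiated HBBko cells, 2 and 2 at 48 h, and 4 and 7 at 5 d. MAT2A, which makes S-adenosylmethionine, averaged 169 ± 7.45 in HBBko cells at 5 d and 252 ± 6.56 in WT cells (-0.58, adjusted p = 1.48e-07).

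Splits of these lists at 5 d moved when all libraries were rescaled to the same sum, which lifted the median of all genes to 0.27. Shares of all tested genes called under that scaling are not given here, so the counts below have no background beside them. The counts of higher and lower genes were then 2 and 12 for ATF4 with its targets, 2 and 6 for amino acid supply, 4 and 8 for NRF2 with its targets, and 8 and 5 for NADPH supply and thioredoxin reduction. They were 11 and 3 for selenoproteins, 5 and 0 for glutathione breakdown, 10 and 2 for the peroxidases, transferases and glutaredoxins, and 6 and 2 for the methionine cycle and sulfur oxidation. At 48 h, where that scaling put the median of all genes at 0.14, the counts were 7 and 0 for NADPH supply and thioredoxin reduction, 9 and 1 for the peroxidases, transferases and glutaredoxins, 6 and 0 for glutathione breakdown, 5 and 0 for NRF2 with its targets and 0 and 12 for ATF4 with its targets.

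**Figure D5:**
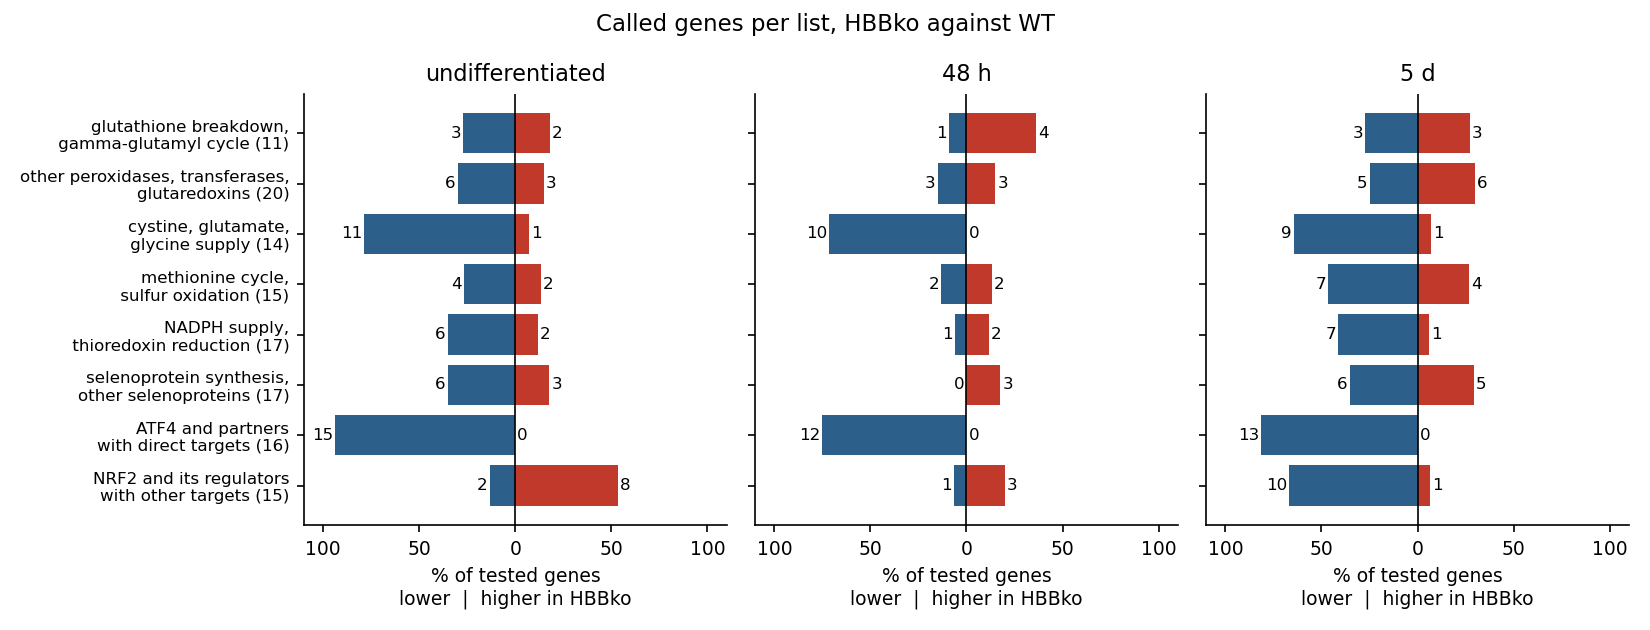
Share of the tested genes of each list (number tested in parentheses) called higher (right, red) or lower (left, blue) in HBBko than in WT cells at the 3 stages, with the counts beside the bars. ATF4 with its targets and the amino acid supply genes are mostly lower at all 3 stages, and the NRF2 list is mostly higher in undifferentiated cells and mostly lower at 5 d.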

How the data were processed

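RNA-seq values came from 18 libraries of a cell line, grouped by genotype and stage as the labels give them. Per the submitters' processing notes, hg38, kallisto and sleuth were used, and versions are not given in the sources used here. The authors deposited a signal table named TPM, whose library sums run from 783213 to 1508342, so it had been scaled in a step not given. The analysis plan assumed plain TPM, and the test was kept. No counts were available for this work, so depth is unknown and precision comes from the spread between libraries alone. The authors' deposited tables also hold log2 fold changes, mean log2 levels and q-values, 1 per stage, whose log2 base is per the file headers.

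The 12005 genes that reached 1 scaled TPM in 3 or more libraries were fitted as log2(scaled TPM + 1) in R 4.3.3 with limma 3.58.1, all 18 libraries together and 1 mean for each of the 6 groups (12 residual degrees of freedom, intensity trend). A fold change on this scale understates the change of genes near 1. P-values were two-sided and adjusted by Benjamini and Hochberg's method, for each of 10 comparisons, across every gene fitted. The code was tested on simulated data. The 9 genes and the lists were chosen with earlier results of these data known, so the low ATF4 targets are not independent evidence. From each list, at most the 3 called genes with the largest change per comparison could be named, and for CHAC1 and CTH the 5 genes of closest pattern. Overlapping and antisense genes may share reads.

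Same-numbered HBBko and WT libraries deviated together in undifferentiated cells (correlations of 0.17, 0.12 and 0.15 across genes) and at 5 d (0.13, 0.18 and 0.13), but not at 48 h (-0.03, -0.01 and 0.02). Between undifferentiated cells and 48 h, same-numbered libraries gave 0.18, 0.10 and 0.19 in WT cells and -0.05, 0.08 and -0.00 in HBBko cells. Between 48 h and 5 d they gave -0.07, 0.04 and 0.01 in WT cells and 0.04, 0.08 and 0.02 in HBBko cells. The main fit had no replicate block and treated the libraries as independent. The labels give no shared batch or day. Alternatives were other pseudocounts, filters and scalings, library weights, a replicate block, fits of the compared groups only, and leaving out libraries. Leaving out both WT replicate 3 libraries, and summing CBS with CBSL, were chosen after seeing the data.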

Additional observations from a re-analysis of the deposited data

Results flagged for a closer look

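The differences between HBBko and WT cells that changed with stage, by limma's interaction test, are given here as values on the log2 scale. Between undifferentiated cells and 48 h the HBBko minus WT difference moved by 1.314 for CHAC1, 1.322 for CTH and 0.380 for GCLM. Between 48 h and 5 d it moved by 1.082 for CHAC1 (adjusted p = 0.034), 0.286 for CBS (0.048), -0.325 for GCLM (0.034), -0.798 for GSR, 0.670 for GPX1 and -0.826 for GPX4. Between undifferentiated cells and 5 d it moved by 2.396 for CHAC1, 1.631 for CTH, -0.783 for GSR, 0.548 for GPX1 and -1.005 for GPX4.

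From 48 h to 5 d the calls of CHAC1, CBS and GCLM were lost with no filter on low values (adjusted p = 0.11, 0.11 and 0.078). With a pseudocount of 5, CHAC1 moved by 0.465 (adjusted p = 0.30). With equal library sums GCLM moved by -0.131 (adjusted p = 0.37). Several of these calls were also lost when 1 library was left out. From 48 h to 5 d, CHAC1 and CBS were called in 2 of 12 such fits, those without WT 48 h replicate 2 (1.214 and 0.322) and without HBBko 5 d replicate 3 (1.194 and 0.323). GCLM was called in 3 of 12, those without WT 48 h replicate 3 (-0.379), WT 5 d replicate 1 (-0.347) and WT 5 d replicate 2 (-0.357). From undifferentiated cells to 48 h, CHAC1 was called in 7 of 12, and was lost without HBBko undifferentiated replicate 1 (1.294) or replicate 3 (1.151), HBBko 48 h replicate 3 (1.286), and WT 48 h replicate 1 (1.289) or replicate 2 (1.181). GCLM was called in 6 of 12, and was lost without HBBko undifferentiated replicate 1 (0.370), HBBko 48 h replicate 1 (0.393), replicate 2 (0.381) or replicate 3 (0.366), and WT 48 h replicate 1 (0.372) or replicate 2 (0.334). The calls of CTH, and those of GSR, GPX1 and GPX4 at 5 d, were made in all 12.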

How the results depend on the processing

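Of 1664 alternative values for the 8 genes in 10 comparisons, 1515 kept direction and call, 77 lost the call, 35 gained it and 37 changed sign. The calls of CHAC1 and CTH between the lines kept direction and call at all 3 stages under every alternative run, as did those of GPX1, GPX4 and GSR at 5 d. Depth is unknown, which limits what can be said of GSS and of genes near 1 scaled TPM. The cause of the changes below was not tested.

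The count of called genes in undifferentiated cells was 2 in a fit of the compared groups only (4 as reported). At 48 h it was 7 with library weights and 7 in the fit of the compared groups only (4 as reported). For the change in the difference to 48 h it was 1 with no filter and 1 in the fit of the compared groups only (3 as reported), and 1 to 3 over fits without 1 library. For the change from 48 h to 5 d it was 3 with no filter and 3 to 5 without 1 library (6 as reported). Shares of all tested genes called in these other fits are not given here. The counts from them thus have no background beside them and are not a result about these genes. With the replicate block GPX4 at 48 h (-0.201, adjusted p = 0.022) and the change in CBS to 5 d (0.229) gained a call, and no other call changed.

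With equal sums, values changed sign for GCLC (0.026) and GPX4 (0.020) in undifferentiated cells, CBS (0.278) and GCLC (0.079) at 5 d, and the changes of CBS to 48 h (0.041) and of GCLC from 48 h (0.109) and from undifferentiated cells (0.053) to 5 d. With globin genes removed they did for GCLC (0.009), GPX4 (0.003), GSR from 48 h to 5 d in HBBko cells (0.045) and the change of GSR to 48 h (-0.018). With quantile normalization they did for CBS at 5 d (0.060), CTH at 48 h in HBBko cells (0.112), and the changes of CBS (0.005) to 48 h and GCLC (0.037) to 5 d. With median-of-ratios scaling GSR did in HBBko cells (0.236) and in its change to 48 h (-0.013). With library weights the change of GCLM to 5 d was -0.064. Without both WT replicate 3 libraries GPX4 was 0.042 and the change of GCLC to 48 h was 0.075.

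Without 1 library, ranges that crossed 0 were GCLC -0.131 to 0.068, GCLM -0.085 to 0.105 and GPX4 -0.119 to 0.042 in undifferentiated cells, GSR -0.073 to 0.025 from 48 h to 5 d in HBBko cells, and the changes of CBS -0.149 to 0.034 and GSR -0.063 to 0.093 to 48 h, GCLC -0.200 to 0.011 from 48 h and GCLM -0.035 to 0.156 from undifferentiated cells to 5 d.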
